A study of Mus musculus with 2 samples.

Results

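Intracellular triglyceride breakdown in brown adipose tissue was described through 9 genes, out of 31053 genes in the matrices of both libraries. These genes encode lipases, a lipase cofactor, lipase inhibitors and a further regulator of lipolysis. All 9 were found by symbol. They were Pnpla2, Lipe and Mgll (the lipases of the successive steps) and Pnpla3 and Lipa (a relative of Pnpla2 and the lysosomal lipase). The others were Abhd5 (a cofactor), Abhd15 (needed for insulin to restrain lipolysis) and G0s2 and Hilpda (inhibitors). In adipocyte nuclei of the 1cyc library, Pnpla3, Abhd15, G0s2 and Lipa were between 2.01 and 3.84 times their level in the TN library. Lipe differed less, at 1.32-fold, and the intervals of Pnpla2, Mgll, Abhd5 and Hilpda held 1.

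Triglycerides in a lipid droplet are split one fatty acid at a time. Pnpla2 (adipose triglyceride lipase) takes off the first, Lipe (hormone-sensitive lipase) the next and Mgll (monoglyceride lipase) the last. Abhd5 (CGI-58) activates Pnpla2, while G0s2 and Hilpda bind and inhibit it. Pnpla3 is a droplet protein close to Pnpla2 in sequence, is induced by feeding in mouse liver and fat, and can bind Abhd5. Abhd15 is an adipocyte protein needed in mice for insulin to restrain lipolysis, through the phosphodiesterase Pde3b. Lipa (lysosomal acid lipase) splits triglycerides and cholesteryl esters delivered to lysosomes. In brown fat the released fatty acids fuel heat production and activate Ucp1, the uncoupling protein.

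The 4 members that were at least 1.5-fold higher in 1cyc adipocyte nuclei are shown with the 250 bases before their start site, because their levels were higher together. The bases are from RefSeq on GRCm38.p6 and are written 5′ to 3′ on the strand of the gene. Capitals mark the cAMP response element TGACGTCA, its core TGACG where no full element is there, CCAAT and TATAAA, each searched on both strands. The stretches lie at chr15:84167566-84167815 (+) for Pnpla3, chr11:77514867-77515116 (+) for Abhd15, chr1:193273189-193273438 (-) for G0s2 and chr19:34527475-34527724 (-) for Lipa.
Pnpla3: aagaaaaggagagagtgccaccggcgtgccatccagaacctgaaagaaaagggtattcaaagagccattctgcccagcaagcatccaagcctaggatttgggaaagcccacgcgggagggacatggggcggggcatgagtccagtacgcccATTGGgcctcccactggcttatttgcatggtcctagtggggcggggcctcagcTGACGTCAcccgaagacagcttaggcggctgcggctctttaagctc
Abhd15: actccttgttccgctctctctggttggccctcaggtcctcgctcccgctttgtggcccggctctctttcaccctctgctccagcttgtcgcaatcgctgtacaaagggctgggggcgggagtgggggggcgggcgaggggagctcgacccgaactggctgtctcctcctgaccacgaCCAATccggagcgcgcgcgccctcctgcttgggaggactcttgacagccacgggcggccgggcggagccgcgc
G0s2: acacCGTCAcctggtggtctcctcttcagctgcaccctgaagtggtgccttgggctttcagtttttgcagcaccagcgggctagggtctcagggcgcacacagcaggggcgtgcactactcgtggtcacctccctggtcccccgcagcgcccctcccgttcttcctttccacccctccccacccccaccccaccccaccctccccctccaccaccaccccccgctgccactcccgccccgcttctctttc
Lipa: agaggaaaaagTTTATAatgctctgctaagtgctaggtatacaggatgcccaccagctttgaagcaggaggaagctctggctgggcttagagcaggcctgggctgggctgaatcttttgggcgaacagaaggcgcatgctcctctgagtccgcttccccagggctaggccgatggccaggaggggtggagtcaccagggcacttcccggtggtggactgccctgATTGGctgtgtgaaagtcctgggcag
TGACGTCA was found in the window of Pnpla3 and of no other member, and 1.79% of the 32851 mouse promoter windows of 300 bases (250 before to 50 after the start) held it. CCAAT was found in the windows of Pnpla3, Abhd15 and Lipa and in 37.4% of all windows. The core TGACG, part of every full element, was in 20.8% of all windows. It was found for Pnpla3, G0s2 and Lipa, in Lipa after the start site and so outside the bases shown. It was also found for Mgll, Abhd5 and Hilpda, which are not among the genes shown, and not for Abhd15. TATAAA was found for Lipa alone and was in 13.6% of all windows. The E-box CACGTG, in 7.15% of all windows, was found for Lipe and Mgll and not in the windows of the 4 genes shown. A match is a description of these letters and not a bound site.

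The 1cyc library came from brown adipose tissue of C57BL/6 mice, an inbred laboratory strain, taken 4 days after a transient acute cold exposure, the primary cold challenge. The TN library came from C57BL/6 mice housed at thermoneutrality, where no extra heat is needed. For each library the nuclei of 5 mice were pooled and sorted for DNA content, so each condition had 1 library, mice cannot be told apart, and the effect of the condition cannot be told apart from that of the library. No test between conditions was possible. The sources used here give no age of the mice and no length or temperature of the cold exposure.

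The 1cyc library held 4321 barcodes with a median of 378 UMIs (molecules counted once each), and the TN library held 2551 barcodes with a median of 800. Only 25.1% of 1cyc barcodes, against 52.5% of TN barcodes, had under 5% mitochondrially encoded UMIs, and barcodes were deposited from 262 UMIs in 1cyc and from 500 in TN. Adipocyte nuclei were those under this limit with at least 4 UMIs of Pparg, Acsl1, Pde3b and Ppara together. There were 912 such nuclei in 1cyc (989852 UMIs, median 966.5 a nucleus) and 1081 in TN (1193078 UMIs, median 873). Of these, 23 in 1cyc and 81 in TN were white-like, with at least 3 UMIs of Nnat and Slc7a10 together, and 889 and 1000 were the other adipocyte nuclei. The class names were set against marker levels in CPM (counts per 1000000 UMIs). The 13 adipocyte markers used, the gate genes among them, summed to 23671 CPM in 1cyc and 18933 CPM in TN adipocyte nuclei. They summed to 6006 CPM in 1cyc and 6304 CPM in TN in the non-adipocyte nuclei described below, where all 13 were detected too. Since the gate genes defined the adipocyte nuclei, this difference is in part fixed by the gate and cannot bear out the name. Ucp1 had 267 UMIs in 1cyc and 150 in TN adipocyte nuclei. Npr3, a white adipocyte marker outside the gate, had 965 CPM in 1cyc and 1193 CPM in TN white-like nuclei. In the other adipocyte nuclei Npr3 had 205 CPM in 1cyc and 263 CPM in TN. The libraries shared 6 barcode sequences, 1 of them in an adipocyte nucleus of both.

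The adipocyte gate also took in other material, unequally. In a clustering of the nuclei, 35 gated nuclei in 1cyc and 84 in TN fell in clusters named for other cell types. Summed haemoglobin and other erythroid markers (5 genes, all detected in both) were at 2734 CPM in 1cyc and 36591 CPM in TN adipocyte nuclei. The 10 endothelial markers, all detected in both, summed to 141 CPM in 1cyc and 469 CPM in TN. The 9 macrophage markers summed to 21.2 CPM in 1cyc with 6 detected, and to 282 CPM in TN with all 9 detected. Values within the gated nuclei that also lay in adipocyte clusters (858 in 1cyc, 987 in TN) are therefore given as well. The ratio of 1cyc over TN in them was 3.53 for Pnpla3, 2.31 for Abhd15, 2.08 for Lipa, 2.02 for G0s2, 1.35 (0.940 to 1.94) for Pnpla2, 1.17 for Lipe, 1.11 for Mgll and 0.762 (0.495 to 1.16) for Abhd5.

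Levels below are CPM of the UMIs summed over a class and library. Values in parentheses are 95% intervals that cover counting error only, not the spread between mice or library preparations. In such sums, fewer cells of a type and less RNA per cell cannot be told apart for a class as a whole. CPM of different genes are not compared with each other, since longer genes can give more nuclear UMIs. Genes with at least 100 UMIs over the adipocyte nuclei of both libraries were compared, 3643 in all, and 8 of the 9 members were among them, Hilpda not. The 100 UMIs were the sum of both libraries, for members and all genes alike. A gene near this minimum, such as G0s2 (93 UMIs in 1cyc and 54 in TN), can thus pass through the library where it is higher.

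**Figure D1:**
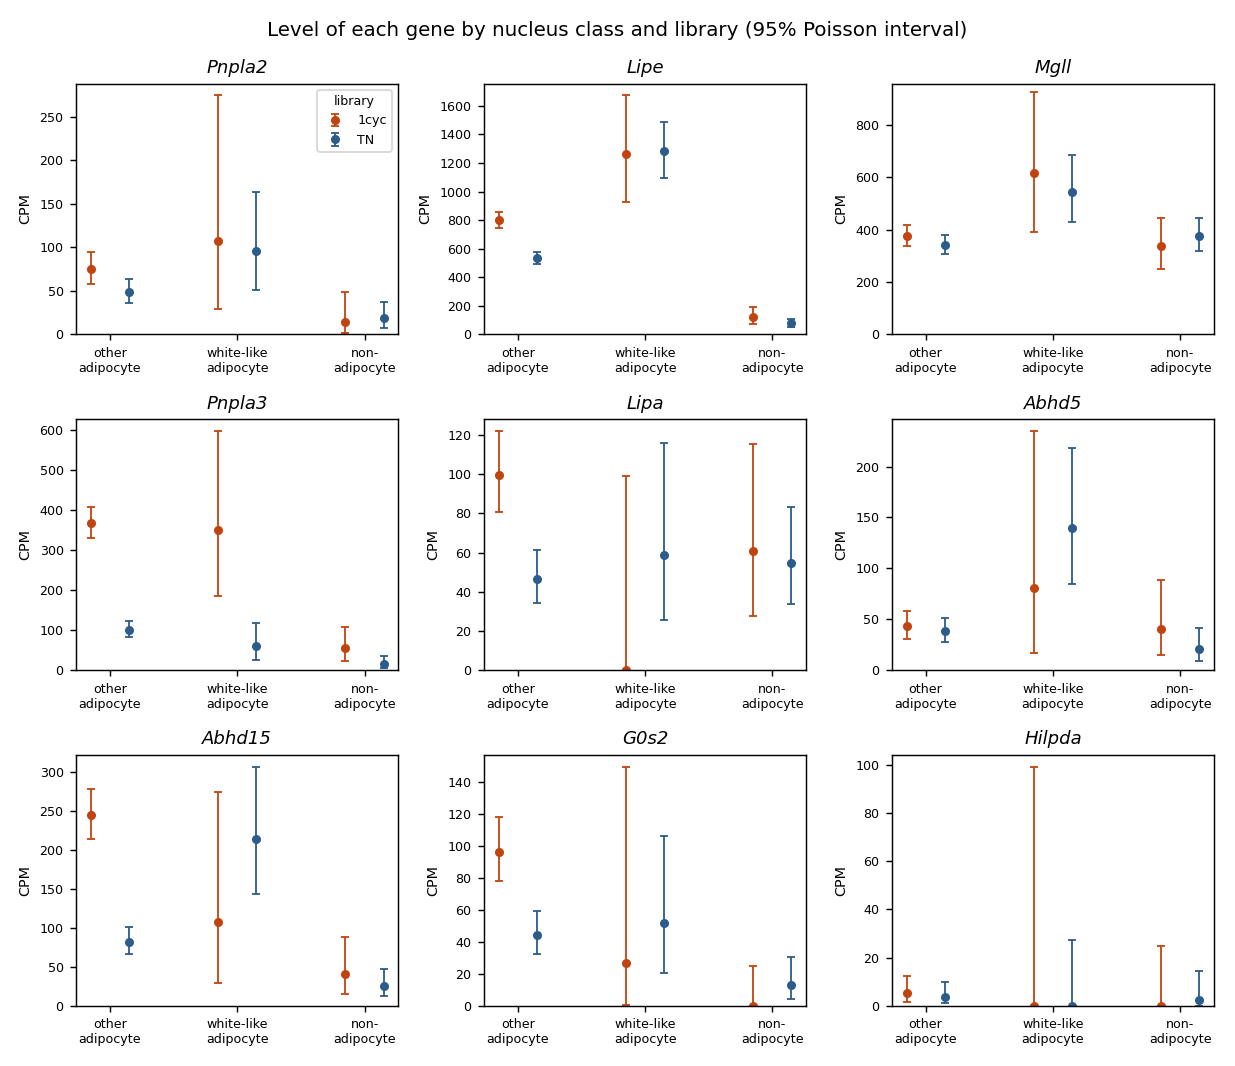
CPM of each gene (vertical axis, from 0, own scale per panel) in other adipocyte, white-like adipocyte and non-adipocyte nuclei, with the 1cyc library left and the TN library right in each pair. Points are sums over 1 library and bars are 95% Poisson intervals. Pnpla3, Abhd15, G0s2, Lipa and, with a smaller ratio, Lipe sit apart between the libraries in the other adipocyte nuclei, while Mgll is nearly level.

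Pnpla3 had the widest gap of the 9 genes. It had 363 UMIs in 1cyc adipocyte nuclei, or 367 CPM (330.0 to 407), against 114 UMIs or 95.6 CPM (78.8 to 115) in TN. The intervals did not overlap and the ratio was 3.84 (3.1 to 4.78), rank 2 among the 3643 genes compared. In nuclei that also lay in adipocyte clusters the ratio was 3.53. The gap was present in each depth class, at 3.24-fold in nuclei under 700 UMIs, 3.21-fold from 700 to 1500 and 6.32-fold over 1500. Depth was not matched in the lowest class, where nuclei began at 270 UMIs in 1cyc and at 501 in TN. The gap was spread over many nuclei. In 1cyc 248 of 912 adipocyte nuclei held a Pnpla3 UMI and 77 held at least 2, and in TN 102 of 1081 held one and 11 at least 2. The nucleus richest in Pnpla3 held 11 UMIs in 1cyc, 3.03% of the gene's total there.

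Lipa had 95 UMIs in 1cyc, or 96.0 CPM (77.65 to 117), against 57 UMIs or 47.8 CPM (36.2 to 61.9) in TN. The ratio of Lipa was 2.01 (1.43 to 2.84) with intervals of the levels apart, at rank 52. It was 1.40 (0.581 to 3.46) in nuclei under 700 UMIs, where 13 UMIs in 1cyc stood against 11 in TN, and it was 2.65 in nuclei over 1500 UMIs.

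Among the lipases of the successive steps the differences were smaller. Pnpla2 had 75 UMIs or 75.8 CPM (59.6 to 94.98) in 1cyc and 64 UMIs or 53.6 CPM (41.3 to 68.5) in TN. Its ratio of 1.41 (0.998 to 2.004) had an interval that touched 1. Lipe had 809 UMIs or 817 CPM (762 to 876) in 1cyc and 737 UMIs or 618 CPM (574 to 664) in TN, a ratio of 1.32 (1.20 to 1.46). The Lipe ratio was 1.17 (1.06 to 1.30) in the nuclei that also lay in adipocyte clusters. Mgll had 386 CPM (348 to 427) in 1cyc and 364 CPM (330.3 to 400) in TN on 382 and 434 UMIs, a ratio of 1.06 (0.922 to 1.22). Mgll was thus within counting error of equal, but its ratio differed between depth classes. It was 1.57 (1.11 to 2.24) under 700 UMIs, 1.11 from 700 to 1500 and 0.832 (0.654 to 1.06) over 1500. The lowest class began at 270 UMIs in 1cyc and at 501 in TN, so a trend with depth cannot be read from it.

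Abhd15, of the insulin restraint of lipolysis, and the cofactor Abhd5 went apart. Abhd15 had 237 UMIs or 239 CPM (209.9 to 272) in 1cyc, against 116 UMIs or 97.2 CPM (80.3 to 117) in TN. The levels of Abhd15 did not overlap, and the ratio was 2.46 (1.96 to 3.1), at rank 18. Abhd5, the activator of Pnpla2, had 44 UMIs or 44.5 CPM (32.3 to 59.7) in 1cyc and 59 UMIs or 49.5 CPM (37.7 to 63.8) in TN. Its ratio of 0.899 (0.594 to 1.35) held 1, and it was the only member with 100 UMIs whose ratio lay below 1.

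Of the inhibitors, G0s2 had 93 UMIs or 94.0 CPM (75.8 to 115) in 1cyc and 54 UMIs or 45.3 CPM (34.0 to 59.1) in TN. The G0s2 levels were apart, with a ratio of 2.08 (1.47 to 2.96), at rank 38. Hilpda, a hypoxia-inducible inhibitor, had 5 UMIs in 1cyc and 4 in TN, and its ratio of 1.51 (0.324 to 7.59) leaves the direction undetermined at this depth.

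Read against all genes, 4 of the 8 members compared (Pnpla3, Abhd15, G0s2 and Lipa) were at least 1.5-fold higher in 1cyc adipocyte nuclei, where 8.56% of the 3643 genes were. The same 4 were at least 2-fold higher, where 1.54% of all genes were. None of the 8 was at least 1.5-fold lower, where 5% of genes were. The median log2 ratio was 0.75 over the 8 and 0.09 over all genes. The members were chosen with earlier results of these data known, so these counts are a description only. The 4 genes kept a ratio of at least 1.5 in every one of 18 alternative settings with the exception of Lipa in nuclei under 700 UMIs.

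**Figure D2:**
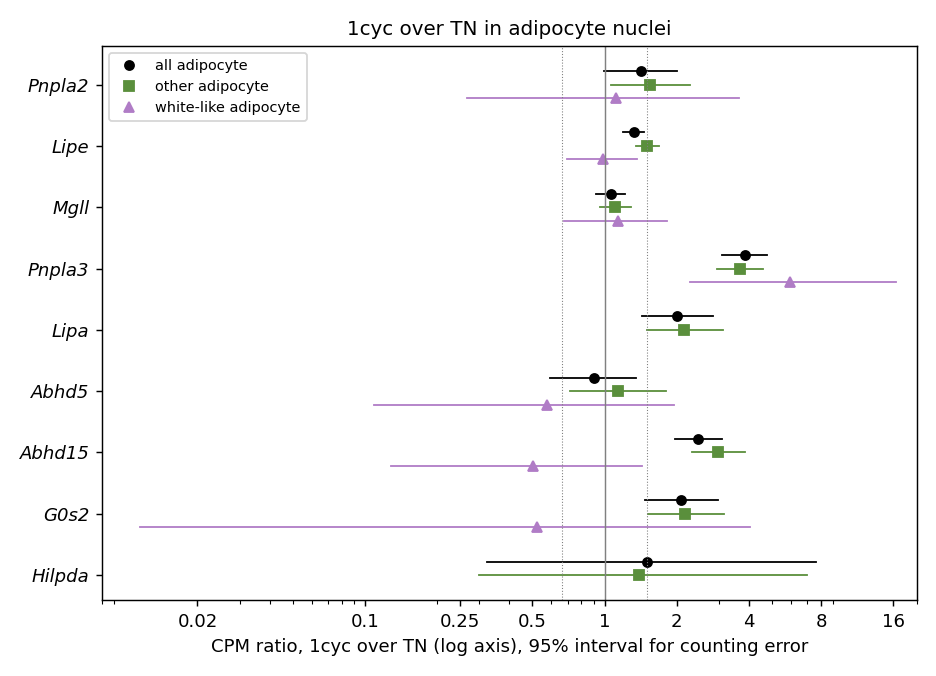
CPM ratio of 1cyc over TN (horizontal log axis) for each gene in all adipocyte, other adipocyte and white-like adipocyte nuclei, with 95% intervals for counting error. The solid line is 1 and the dotted lines are 1.5-fold in either direction. Lipa (0 UMIs in 1cyc) and Hilpda (0 in both) have no white-like ratio, and Pnpla3 is the gene whose white-like interval lies above 1.

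**Figure D3:**
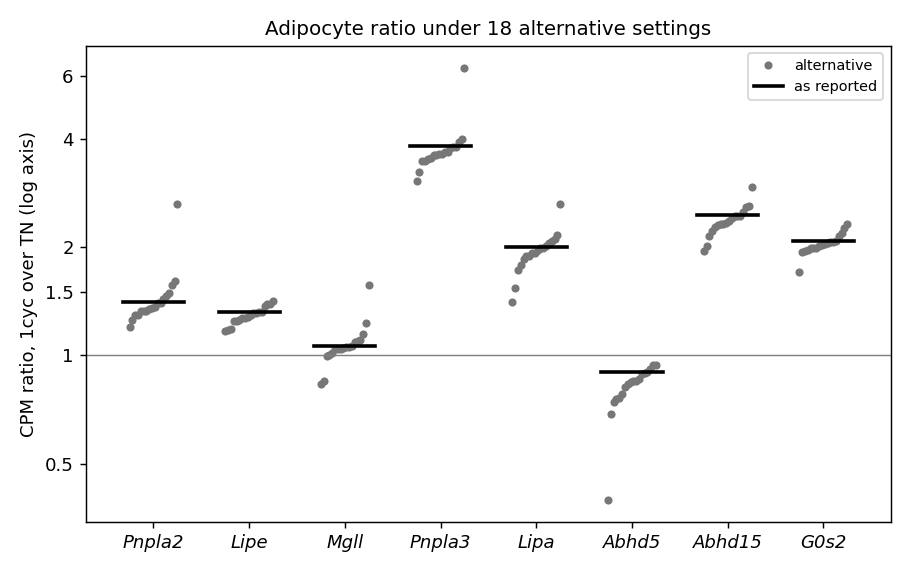
CPM ratio of 1cyc over TN in adipocyte nuclei (log axis) for the 8 members with 100 UMIs, as reported (bar) and under 18 alternative settings (points, sorted by value). Pnpla3 lies at 3.06 or above throughout, Abhd15 at 1.96 or above and G0s2 at 1.71 or above, and Abhd5 stays below 1.

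Several of these genes overlap a gene on the opposite strand in the GENCODE M21 annotation, and the sources used here do not give the use of strand in the counting. Taok1, which overlaps Abhd15, had a ratio of 0.933 (0.784 to 1.11) in adipocyte nuclei on 236 UMIs in 1cyc and 305 in TN. Trp53i13, which also overlaps Abhd15, had 7 UMIs in 1cyc and 2 in TN, a ratio of 4.22 (0.803 to 41.6). Gm10392, a further protein-coding gene that overlaps Abhd15, was in the matrices and was not examined. The long non-coding RNA 4732471J01Rik, which overlaps Lipe, had a ratio of 1.39 (1.13 to 1.71), close to that of Lipe. Lamb3, which overlaps G0s2, had 25 UMIs in 1cyc and 20 in TN, a ratio of 1.51 (0.803 to 2.86) with an interval that held 1. Pnpla3 and Lipa had no overlap partner among those measured.

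In the other adipocyte nuclei, the bulk of the adipocyte UMIs, Pnpla3, Abhd15, G0s2 and Lipa also differed most between libraries. Abhd15 had 245 CPM (214 to 278) in 1cyc and 82.3 CPM (65.9 to 101) in TN, a ratio of 2.97 (2.31 to 3.85). Pnpla3 had 367 CPM in 1cyc and 100.3 CPM in TN, 3.66-fold, G0s2 had 96.6 and 44.5 CPM, 2.17-fold, and Lipa had 99.7 and 46.4 CPM, 2.15-fold. Lipe stood at 800.0 CPM in 1cyc and 533 CPM in TN, 1.502-fold, and Pnpla2 at 74.5 and 48.2 CPM, 1.55-fold (1.06 to 2.26). The ratio was 1.11 (0.954 to 1.29) for Mgll and 1.14 (0.718 to 1.8) for Abhd5, both with intervals that held 1. Of the 7 members with 100 UMIs there, 6 were at least 1.5-fold higher in 1cyc, where 8.23% of 3440 genes were, and 4 were at least 2-fold higher, where 1.25% were, and none was at least 1.5-fold lower, where 4.07% of genes were. Lipe and Pnpla2 lost that place when the nuclei also had to lie in adipocyte clusters (835 in 1cyc and 907 in TN): the Lipe ratio was then 1.31 (1.17 to 1.47) and the Pnpla2 ratio 1.48 (1.00 to 2.21). The other 4 kept it, with Pnpla3 at 3.31, Abhd15 at 2.79, Lipa at 2.26 and G0s2 at 2.10, where 6.11% of 3091 genes passed 1.5-fold upwards, 0.809% passed 2-fold and 2.94% passed 1.5-fold downwards. Which members were counted depended on the minimum of 100 UMIs over both libraries. In the other adipocyte nuclei Pnpla2 (71 UMIs in 1cyc and 51 in TN), G0s2 (92 and 47) and Lipa (95 and 49) passed it. Abhd5 (41 and 40) did not, so the counts of members there are a description only.

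The white-like nuclei held few UMIs, 37308 in 1cyc and 135827 in TN, so most ratios there were wide. Pnpla3 was 5.92-fold higher (2.27 to 16.5), on 13 UMIs in 1cyc and 8 in TN. Lipe was level, at 1260 CPM (926 to 1675) in 1cyc and 1281 CPM (1098 to 1486) in TN, a ratio of 0.983 (0.697 to 1.36). Mgll had 616 CPM in 1cyc and 545 CPM in TN. Abhd15 had 4 UMIs in 1cyc and 29 in TN, a ratio of 0.502 (0.128 to 1.43), and G0s2 had 1 in 1cyc and 7 in TN, a ratio of 0.520 (0.0115 to 4.05), so that their directions were undetermined. Lipa had 0 UMIs in 1cyc and 8 in TN, and the floor of 3 UMIs in 1cyc, 80.4 CPM, lay above the TN level of 58.9 CPM. Lipe was the only member with 100 UMIs in these nuclei and was not past 1.5-fold, whereas 4.3% of the 186 genes measured there were at least 1.5-fold higher.

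Within a library, white-like nuclei had more Lipe and Mgll than the other adipocyte nuclei in both conditions. In 1cyc the white-like over other ratio was 1.57 (1.15 to 2.12) for Lipe and 1.64 (1.02 to 2.49) for Mgll. In TN it was 2.41 (2.02 to 2.86) for Lipe and 1.60 (1.23 to 2.06) for Mgll. Abhd15 was at 107 CPM in white-like and 245 CPM in other nuclei of 1cyc, a ratio of 0.438 (0.118 to 1.14) on 4 white-like UMIs. In TN Abhd15 was at 214 CPM in white-like and 82.3 CPM in other nuclei, a ratio of 2.59 (1.64 to 3.99). Abhd5 had the widest gap in TN, 140 CPM in white-like (19 UMIs) and 37.8 CPM in other nuclei (40 UMIs), a ratio of 3.70 (2.02 to 6.53), and in 1cyc its ratio of 1.87 (0.370 to 5.86) rested on 3 white-like UMIs. Pnpla3 pointed the other way in TN, at 0.587 (0.247 to 1.20), with an interval that held 1. Within adipocyte clusters of TN, Lipe was at 1293 CPM in white-like and 625 CPM in other nuclei, and Mgll at 550 and 319 CPM. Abhd15 was there at 215 and 91.9 CPM, Abhd5 at 141 and 43.7 CPM and Pnpla3 at 59.4 and 116 CPM. Within those of 1cyc, Lipe was at 1260 and 819.5 CPM and Mgll at 616 and 378 CPM. Of the 4 members with 100 UMIs over both kinds, 2 (Lipe and Mgll) were at least 1.5-fold higher in white-like nuclei of 1cyc, where 18.7% of 1959 genes were, and 3 (Lipe, Mgll and Abhd15) in TN, where 16.7% of 2177 genes were. In the lower direction stood 1 of the 4 in 1cyc (Abhd15), where 35% of genes did, and 1 in TN (Pnpla3), where 24% did.

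White-like nuclei gave 3.77% of the adipocyte UMIs in 1cyc and 11.4% in TN. With the 1cyc levels weighted to the TN share, the ratio over TN was 3.82 for Pnpla3, 2.35 for Abhd15, 1.96 for G0s2, 1.85 for Lipa, 1.46 for Pnpla2, 1.38 for Lipe, 1.11 for Mgll and 0.956 for Abhd5, each close to the unweighted value.

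The balance of lipases to inhibitors was counted as UMIs of Pnpla2, Lipe and Mgll over UMIs of G0s2 and Hilpda. Its absolute size depends on how well each gene is captured, so it is only compared between libraries and classes. Adipocyte nuclei held 1266 lipase and 98 inhibitor UMIs in 1cyc, or 12.9 lipase UMIs per inhibitor UMI (10.5 to 16.03). In TN they held 1235 and 58, or 21.3 (16.4 to 28.2). The odds ratio of 1cyc over TN was 0.607 (0.427 to 0.857), and 0.578 (0.402 to 0.825) within adipocyte clusters. The other adipocyte nuclei gave 12.3 per inhibitor UMI in 1cyc and 19.1 in TN, an odds ratio of 0.643 (0.444 to 0.923). White-like nuclei gave 74 lipase UMIs to 1 inhibitor UMI in 1cyc and 261 to 7 in TN, too few inhibitor UMIs to place the ratio (odds ratio 1.98, 0.248 to 90.6). G0s2 gave 93 of the 98 inhibitor UMIs in 1cyc and 54 of the 58 in TN, so the balance follows that gene. Per G0s2 UMI the odds ratio of 1cyc over TN was 0.511 (0.349 to 0.745) for Mgll, 0.637 (0.440 to 0.916) for Lipe, 0.433 (0.2504 to 0.748) for Abhd5 and 0.680 (0.412 to 1.12) for Pnpla2, the direct target of G0s2, whose interval held 1. Pnpla3 went the other way, at 1.85 (1.22 to 2.79) per G0s2 UMI, while Abhd15 (1.19) and Lipa (0.968) kept step with G0s2 within counting error. With Pnpla3 and Lipa counted among the lipases the odds ratio was 0.726 (0.511 to 1.02), and with nuclei thinned to 500 UMIs it was 0.763 (0.456 to 1.27), so both intervals then held 1.

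**Figure D4:**
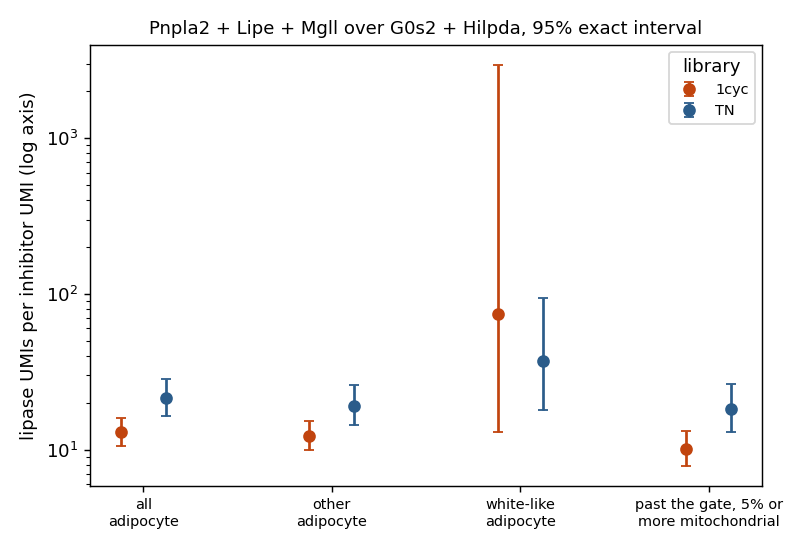
UMIs of Pnpla2, Lipe and Mgll per UMI of G0s2 and Hilpda (log axis) in all adipocyte, other adipocyte and white-like adipocyte nuclei and in barcodes past the adipocyte gate with 5% or more mitochondrially encoded UMIs, with 1cyc left and TN right in each pair. Bars are 95% exact intervals for counting error. The value is lower in 1cyc in 3 of the 4 groups, and the white-like bars overlap. All adipocyte nuclei include the other and the white-like nuclei, so these groups are not separate.

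Barcodes that passed the adipocyte gate but held 5% or more mitochondrially encoded UMIs stood outside the main comparison, 1637 in 1cyc and 816 in TN. Pnpla3 had 325 CPM in 1cyc and 103 CPM in TN there, a ratio of 3.14 (2.40 to 4.16), and G0s2 had 90.9 and 48.7 CPM, 1.86 (1.21 to 2.92). Abhd15 was at 1.30 (0.949 to 1.79) and Lipa at 0.999 (0.641 to 1.56), both with intervals that held 1. Mgll was lower in 1cyc, at 260.2 CPM, with 443 CPM in TN and a ratio of 0.587 (0.487 to 0.707). The median log2 ratio of all 2275 genes measured in these barcodes was -0.32. Of the 5 members measured, 1 (Pnpla3) was at least 1.5-fold higher, where 4.26% of genes were, and 1 (Mgll) at least 1.5-fold lower, where 22.9% were. G0s2 (66 UMIs in 1cyc and 33 in TN), Lipa (45 and 42), Abhd5 (20 and 30) and Hilpda were under the minimum of 100 UMIs and were not counted. The lipase to inhibitor odds ratio was 0.557 (0.354 to 0.863).

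The genes differed in which cell classes held them. Clusters named for fibroblasts or progenitors, endothelial cells, pericytes, smooth muscle, macrophages or monocytes and skeletal muscle together held 136 nuclei in 1cyc and 270 in TN, gated ones included. Against adipocyte nuclei in adipocyte clusters, these non-adipocyte nuclei had 0.145 times the Lipe level in 1cyc (0.0856 to 0.231) and 0.105 times in TN (0.0701 to 0.153). Pnpla3 was at 0.141 times the adipocyte level in 1cyc and 0.144 times in TN, and Abhd15 at 0.162 and 0.240 times. G0s2 had 0 UMIs in non-adipocyte nuclei of 1cyc and 5 in TN. Those 4 genes and Pnpla2 (0.174 times in 1cyc, 0.315 in TN) were thus lower in the summed non-adipocyte nuclei than in adipocyte nuclei in both libraries, with intervals below 1. Single classes were not all set apart from adipocyte nuclei. Pnpla2 had 2 UMIs or 126 CPM in macrophage or monocyte nuclei of 1cyc. In endothelial nuclei of TN it had 4 UMIs, 0.823 times (0.217 to 2.22) the adipocyte level. Pnpla3 had 4 UMIs in endothelial nuclei of 1cyc, 0.440 times (0.119 to 1.14) the adipocyte level. G0s2 had 0 UMIs in endothelial nuclei of 1cyc and 1 in TN, with intervals that reached 1.57 and 1.39 times. Lipa was not set apart in the summed non-adipocyte nuclei either. Its level there was 0.625 times the adipocyte level in 1cyc (0.277 to 1.24) and 1.17 times in TN (0.662 to 1.99). The members were not removed from the genes open to the clustering, and Pnpla3 was among the leading genes of adipocyte clusters. The contrasts between clusters can therefore be built in to some degree and are descriptions only. How much of the non-adipocyte UMIs is free RNA was not tested.

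Mgll was higher in endothelial than in adipocyte nuclei. Endothelial nuclei had 1471 CPM (1025 to 2046) in 1cyc on 35 UMIs from 25 nuclei, and 1437 CPM (1192 to 1717) in TN on 121 UMIs from 53 nuclei. These levels overlapped between libraries, with a ratio of 1.02 (0.682 to 1.502). They were 3.79 times (2.60 to 5.37) the adipocyte level in 1cyc and 4.10 times (3.31 to 5.06) in TN. Among the classes with at least 20000 UMIs in both libraries, the order for Mgll was endothelial, white-like adipocyte, other adipocyte and fibroblast or progenitor (96.1 CPM in 1cyc, 112 in TN) in both libraries. In 1cyc the intervals of the white-like (391 to 925 CPM) and the other adipocyte nuclei in adipocyte clusters (339 to 421 CPM) met, so those neighbours were not set apart by their levels alone. For Lipe the order was white-like, other adipocyte, endothelial (252 CPM in 1cyc, 119 in TN) and fibroblast or progenitor (72.1 in 1cyc, 74.8 in TN), with overlapping intervals for the last pair in both libraries. Endothelial nuclei past the adipocyte gate numbered 11 in 1cyc and 27 in TN. Without gated nuclei of non-adipocyte clusters the adipocyte Mgll ratio was 1.11 (0.953 to 1.29).

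**Figure D5:**
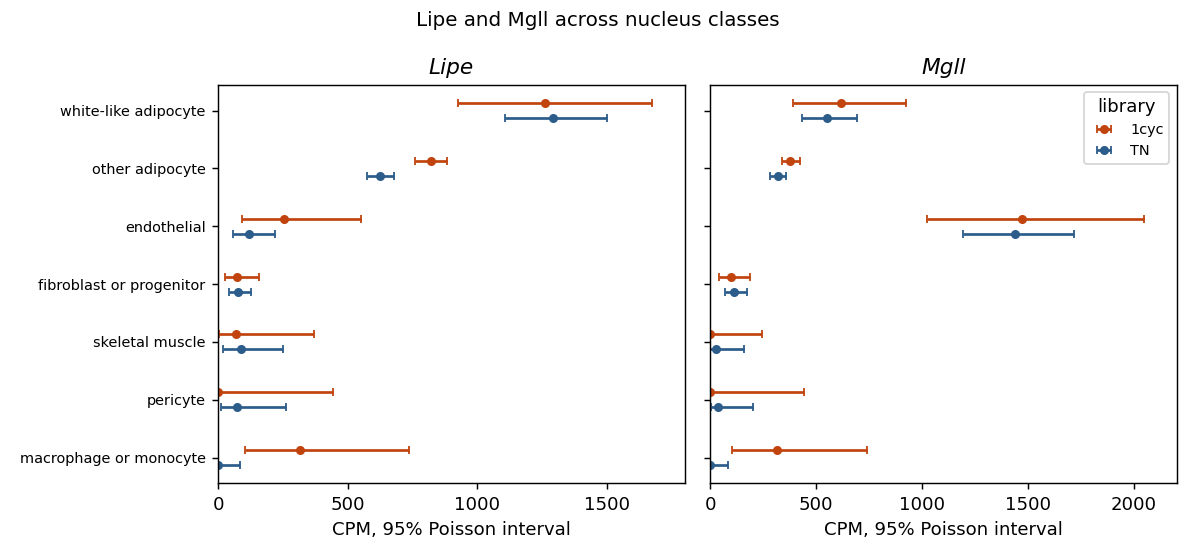
Lipe (left panel) and Mgll (right panel) CPM (horizontal axes, from 0) by nucleus class, with the 1cyc library above the TN library in each pair and 95% Poisson bars. Adipocyte classes are limited to nuclei of adipocyte clusters. Lipe is highest in white-like adipocyte nuclei and Mgll in endothelial nuclei, at 1471 CPM in 1cyc and 1437 CPM in TN.

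The share of nuclei with a UMI was compared after thinning each nucleus to 500 UMIs, which left out 125 adipocyte nuclei in 1cyc and none in TN. Pnpla3 was then seen in 13.7% (11.4 to 16.3) of 1cyc and 4.81% (3.61 to 6.26) of TN adipocyte nuclei, against 27.2% and 9.44% unthinned. In non-adipocyte nuclei, thinned alike, it was seen in 2.61% (0.541 to 7.44) in 1cyc and 0.370% (0.00938 to 2.05) in TN. Abhd15 was seen in 10.3% of 1cyc and 5.18% of TN adipocyte nuclei, and Lipe in 31.1% and 25.9%, against 19.6% and 9.34% for Abhd15 and 52.2% and 42.6% for Lipe unthinned. The thinned intervals were apart for Abhd15 and met for Lipe. For Mgll the thinned shares were 19.1% in 1cyc and 15.3% in TN adipocyte nuclei, and 9.57% and 15.6% in non-adipocyte nuclei. G0s2 (4.32% in 1cyc and 2.59% in TN), Lipa (4.32% and 2.41%), Pnpla2 (3.81% and 2.59%) and Abhd5 (1.91% and 2.78%) were near the level of 1 UMI per nucleus in few nuclei, and their intervals overlapped between libraries.

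Within 1 library the members were set against other genes of the same thinned nuclei. Nuclei with at least 2 UMIs of the fatty acid synthesis genes Acly, Scd1, Fasn, Acaca, Elovl6 and Acss2 numbered 406 in 1cyc and 310 in TN, and nuclei with 0 such UMIs 174 in 1cyc and 387 in TN. In 1cyc Pnpla3 was 1.71-fold higher (1.04 to 2.96) in the nuclei with these UMIs, and in TN it was at 0.647 (0.314 to 1.28). In the other adipocyte nuclei alone, thinned in a separate draw, Pnpla3 was at 1.67 (1.01 to 2.88) in 1cyc and 0.946 (0.484 to 1.83) in TN, and Lipe was at 1.37 (1.002 to 1.89) in 1cyc, against 1.17 (0.877 to 1.57) over all adipocyte nuclei. In the split by Ucp1, 93 nuclei in 1cyc and 74 in TN held a UMI. G0s2 was higher in the Ucp1-positive nuclei of TN, 4.33-fold (1.56 to 10.5) on 7 and 22 UMIs, and at 1.20 (0.365 to 3.12) in those of 1cyc. In the other adipocyte nuclei alone the G0s2 ratio was 3.7 (1.22 to 9.55) in TN. Splits by a Pnpla3 or a G0s2 UMI gave no ratio whose interval left out 1 both over all adipocyte nuclei and over the other adipocyte nuclei. In 1cyc nuclei with a Pnpla3 UMI, Abhd15 was at 1.77 (1.02 to 2.94) over all and at 1.57 (0.907 to 2.59) over the other adipocyte nuclei. In 1cyc nuclei with a G0s2 UMI, Mgll was at 2.17 (1.19 to 3.7) over all and at 1.81 (0.851 to 3.43) over the other nuclei. In TN nuclei with a Pnpla3 UMI, G0s2 was at 4.52 (1.33 to 12.3) over the other adipocyte nuclei, on 5 and 21 UMIs. These splits rest on few UMIs, and most of the others had intervals that held 1.

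Of 48 other genes of lipid breakdown, 31 had 100 UMIs in adipocyte nuclei. The lists were chosen with earlier results of these data known, so their counts against all genes are a description only. Among lipase relatives and other lipid hydrolases, 4 of the 9 measured were at least 1.5-fold higher in 1cyc, where 8.56% of all 3643 genes were, and none was 1.5-fold lower, where 5% of all genes were. They were Dagla, a diacylglycerol lipase of endocannabinoid synthesis, at 96.0 CPM in 1cyc and 46.9 CPM in TN (2.04, 1.45 to 2.90), Abhd6, a monoacylglycerol hydrolase (1.65), Ddhd2, a phospholipase of the DDHD family (1.53), and Ces1d, a carboxylesterase that splits triglycerides (1.52). Ddhd2 and Ces1d were at 1.44 and 1.43 with TMM scaling. Lpl, which splits circulating triglycerides, was at 1.23 (1.12 to 1.35).

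Of 3 measured partners of lipoprotein lipase, Lmf1, a factor for its maturation, was at 2.04 (1.40 to 3.01), and Angptl4, its inhibitor, at 1.12 (0.862 to 1.47). Gpihbp1, its endothelial anchor, was under the minimum of 100 UMIs, with 1 UMI in 1cyc and 33 in TN adipocyte nuclei, a ratio of 0.0365 (0.000898 to 0.218), named after its values were seen. The endothelial markers in these nuclei summed to 141 CPM in 1cyc and 469 CPM in TN, and their part in this was not tested. Of 19 measured droplet and signalling partners, Plin2, a droplet coat protein, was the 1 gene at least 1.5-fold higher, with 326 CPM in 1cyc and 129 CPM in TN (2.53, 2.08 to 3.08). That is 1 of 19, near the 8.56% of all genes, and none was 1.5-fold lower, where 5% of all genes were. Plin1, the coat protein that holds Abhd5 at rest, was at 1.45 (1.29 to 1.63), Pde3b, the partner of Abhd15 and a gate gene, at 1.03 (0.973 to 1.09), and Plin5 had 30 UMIs in 1cyc and 31 in TN. The median log2 ratio was 0.30 for the hydrolases, 0.17 for the lipoprotein lipase partners and 0.19 for the droplet and signalling partners, against 0.09 for all genes.

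Genes with the most similar pattern were sought over 12 sums of a class and library with at least 20000 UMIs, among 4144 genes, by Pearson correlation of log2(CPM + 10). These points share libraries, depth and, in part, RNA of other nuclei, and the highest of 4144 values is high by selection, so the values are descriptions only. For Pnpla3 they were Scpep1 (0.93), Plin1 (0.91) and 4930556N13Rik (0.90), and for Lipe Bnip3 (0.93) and Pck1 (0.92). For Mgll they were Ptprm (0.99), Jade3 (0.94) and Plxna2 (0.93). For Abhd15 they were Abhd6 (0.95), Adora1 (0.94) and Ormdl3 (0.94), and for G0s2 Lncbate1 (0.94), Luc7l (0.94) and Timm23 (0.93). For Lipa they were 1600010M07Rik (0.96), Gtf2f2 (0.95) and Lmbrd2 (0.94). For Abhd5 they were Tmem120a (0.97), Pmepa1 (0.94) and Cyb5d2 (0.93), and for Pnpla2 Eml5 (0.90), Ucp3 (0.89) and Zc3h4 (0.89).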

How the data were processed

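Brown adipose nuclei were profiled with the 10X Genomics platform, 1 library of 5 pooled mice for 1cyc and 1 for TN. The authors deposited UMI counts for each gene in each barcode, without normalisation. The submitters' processing notes name mm10 and Cell Ranger 3, and per the file headers the version was 3.1.0. The sources used here do not give the annotation version, the counting of intronic reads or the use of strand. Gene positions came from GENCODE M21.

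The gates are given in the report. Counts were summed over a class and library and scaled to CPM. CPM have exact Poisson intervals, ratios and odds exact conditional intervals and shares exact Clopper-Pearson intervals, at 95%, for counting error only. The ratio code was checked on simulated data with 200 changed genes. Nuclei under the 5% mitochondrial limit with 200 or more genes, 1065 in 1cyc and 1303 in TN, were clustered together in scanpy 1.11.5 (2000 variable genes, 30 principal components, Leiden resolution 1) and clusters were named from marker lists. Scrublet called 9 doublets in 1cyc and 10 in TN, and removing them was an alternative. Promoter windows from RefSeq matched all 9 members by symbol.

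With 1 library per group, no test was run, and genes were called past 1.5-fold and 2-fold by the ratio alone. Alternative settings changed the gate, the mitochondrial limit, the depth, the scaling (TMM of edgeR 4.0.16, median of ratios of DESeq2 1.42.0), doublets and clusters. Named beyond the members were listed genes of lipid breakdown past 1.5-fold with an interval that left out 1, a few always named, and the 3 genes most like each member, 1 of which is not reported here. The members and lists were chosen with earlier results of these data known.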

Additional observations from a re-analysis of the deposited data

Results flagged for a closer look

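Ratios of 1cyc over TN were set side by side for members with white-like UMIs in both libraries. For 4 of them the ratio lay below 1 in the white-like and above 1 in the other adipocyte nuclei. The difference was not tested. Lipa, with 0 white-like UMIs in 1cyc and 8 in TN, was not counted. For Lipe the ratio was 0.983 in white-like and 1.502 in other adipocyte nuclei. For Abhd15 it was 0.502 in white-like and 2.97 in other nuclei, for G0s2 0.520 and 2.17, and for Abhd5 0.575 and 1.14. The white-like values rest on 4 UMIs in 1cyc and 29 in TN for Abhd15, on 1 and 7 for G0s2 and on 3 and 19 for Abhd5, and all 4 white-like intervals, and that of Abhd5 in other nuclei, held 1.

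A difference also appeared in barcodes outside the main comparison, those past the adipocyte gate with 5% or more mitochondrially encoded UMIs. The ratio there was 3.14 for Pnpla3 and 1.86 for G0s2. G0s2 had 66 UMIs in 1cyc and 33 in TN there, under the minimum of 100 UMIs for the counts of members. The median mitochondrial share of these barcodes was 26.7% in 1cyc and 7.80% in TN, and its part in the result was not tested.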

How the results depend on the processing

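Of 269 values recomputed under an alternative, 256 stayed within the interval or the 1.5-fold bound around the reported value, 13 moved further and none of the called values turned direction. The adipocyte ratio ranged over 3.06 to 6.32 for Pnpla3, 1.96 to 2.95 for Abhd15, 1.71 to 2.32 for G0s2, 1.40 to 2.65 for Lipa, 1.17 to 1.42 for Lipe, 1.20 to 2.64 for Pnpla2, 0.832 to 1.57 for Mgll and 0.396 to 0.944 for Abhd5. The extremes mostly came from splitting the nuclei by depth, and the cause was not tested. The odds ratio of lipases to inhibitors ranged over 0.543 to 0.763. TMM and median of ratios scaling gave 3.62 and 3.61 for Pnpla3, and each left 4 instead of 6 of the other lipid breakdown genes at 1.5-fold. The settings limited to adipocyte clusters, to depth classes or to totals without haemoglobin genes, and lipase sums without Mgll or Lipe, were chosen after seeing the data. No paired analysis was possible because each condition was 1 pooled library. No replicate could be left out for the same reason, so nothing here measures the spread between mice. Depth limits Hilpda and most white-like values.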

Other observations

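Barcodes below the adipocyte gate with 5% or more mitochondrially encoded UMIs, 1600 in 1cyc and 395 in TN, also held UMIs of these genes. Pnpla3 had 157 UMIs or 277 CPM in 1cyc and 4 UMIs or 10.6 CPM in TN, a ratio of 26.2 (10.0 to 97.3). G0s2 had 46 UMIs or 81.2 CPM in 1cyc and 2 UMIs or 5.29 CPM in TN, a ratio of 15.3 (4.01 to 131). Lipe had 556 CPM in 1cyc and 164 CPM in TN, and Mgll 228 and 558 CPM. The median depth of these barcodes was 308 UMIs in 1cyc and 741 in TN. Their median mitochondrial share was 31.3% in 1cyc and 9.66% in TN. The part of depth or of mitochondrial share in these ratios was not tested. Which nuclei or free RNA these barcodes hold was not tested either.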
